A study of Mus musculus with 18 samples.

Results

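The genes described here encode the ligands of the inhibitory receptor PD-1, namely Cd274 (PD-L1) and Pdcd1lg2 (PD-L2), together with the costimulatory molecules Cd80, Cd86, Icosl, Tnfrsf9, Tnfrsf4 and Tnfsf4. All probes carrying 1 of these symbols were taken, which gave 14 probes for 8 of the 19057 genes named on the array. Messenger RNA had been measured on Illumina mouse bead arrays in mast cells of female mice, wild type or lacking Dnmt3a, an enzyme that places new methyl groups on DNA. The cells were untreated or had been stimulated for 4 h or 24 h through IgE and antigen, of which the treatment label names only IgE. Each of the 6 groups had 3 arrays, 1 from each of 3 wild-type cultures (6, 8 and 9) or 3 knockout cultures (3, 4 and 6), and each slide carried 1 culture of either genotype (wild-type 6 with knockout 3 on slide 1, wild-type 8 with knockout 4 on slide 2, wild-type 9 with knockout 6 on slide 3). The sample titles give 5 weeks without saying whether this is an age or a time in culture, the numbers are read here as cultures, and no source used here names the strain or the driver and extent of the Dnmt3a deletion. P-values measure the spread between these arrays, culture and slide cannot be told apart within a genotype, and fewer cells of a type and less RNA per cell cannot be told apart in such bulk samples. The genes were chosen by name with the higher wild-type level of Pdcd1lg2 at 4 h and the lower wild-type level of Cd274 at 24 h than at 4 h already known. Both of these wild-type comparisons, in which 1.83% and 5.46% of all genes were called, are therefore descriptions without a p-value. Tests of these 2 genes in other comparisons that use the same wild-type arrays are not independent of that choice.

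PD-L1 and PD-L2 sit on the surface of a cell and bind PD-1 on T cells, which dampens T cell activation. Of the B7 family members on the costimulatory side, CD80 and CD86 bind CD28 and CTLA-4, and ICOSL binds ICOS. Tnfrsf9 (CD137) and Tnfrsf4 (CD134) encode receptors of the TNF superfamily that signal through TRAF adaptors to NF-kB, while Tnfsf4 encodes the ligand of Tnfrsf4, through which mast cells can signal to T cells.

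Median probe signals ran from 93.4 to 159 per array, and between 28.7% and 33.8% of probes lay above the array's background limit. That limit was the 99th percentile of 1501 olfactory and vomeronasal receptor probes and ran from 107 to 222 intensity units. A gene was tested when 1 of its probes exceeded the limit on at least 3 of 18 arrays, which 8985 genes did. All 12 mast cell markers passed, whereas of 13 dendritic cell markers only H2-Ab1 and Siglech passed, and Flt3, Itgax, H2-Aa and Cd74 were above background on 0 arrays. Of the other lists, 1 of 11 macrophage markers (Adgre1), 2 of 10 T and NK cell markers (Cd8b1 and Gzmb), 0 of 6 B cell markers, 1 of 8 neutrophil markers (Elane) and all 3 basophil markers passed. Cd3e, Cd3d, Cd3g, Ms4a1, C1qa, S100a8 and S100a9 were above background on 0 arrays. The 3 Dnmt3a probes were above background on 0 arrays, in wild-type cells too, so the genotype labels had no check here.

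The genes differed widely in how far their signal stood above background. Cd274 was above it on 18 of 18 arrays, at 477% to 2836% of the limit. Tnfrsf4 was also above it on 18 arrays but no higher than 432% of the limit. Pdcd1lg2 was above background on 17 arrays, the exception being untreated knockout culture 4 at 93.9% of the limit. Tnfrsf9 had 3 probes, of which 1 was above background on 18 arrays, 1 on 17 and 1 on 0. Tnfsf4 was above background on 13 arrays, with 0 of 3 in untreated wild-type cells, 2 of 3 in untreated knockout cells and 2 of 3 in knockout cells at 24 h.

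The B7 genes Cd80, Cd86 and Icosl stayed at background. The better Cd80 probe exceeded the limit on 3 arrays, all from knockout cells, namely cultures 3 and 6 at 4 h and culture 3 at 24 h, with at most 109% of the limit. The other Cd80 probe exceeded it on 0 arrays. One Icosl probe was above it on 7 arrays at no more than 106% of the limit, and the other on 0. Of 3 Cd86 probes 1 passed on a single array, untreated knockout culture 6, at 103% of the limit. Cd86 was not tested for this reason, and the values of Cd80 and Icosl below have little room above background. In all, 7 of the 8 genes had a tested probe, Cd80 only through stimulated knockout arrays, so that its values in knockout cells are descriptions although it is counted among the 7. Tnfsf4 passed only through stimulated arrays, so its values against untreated cells are descriptions, and it too is counted among the 7.

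**Figure D1:**
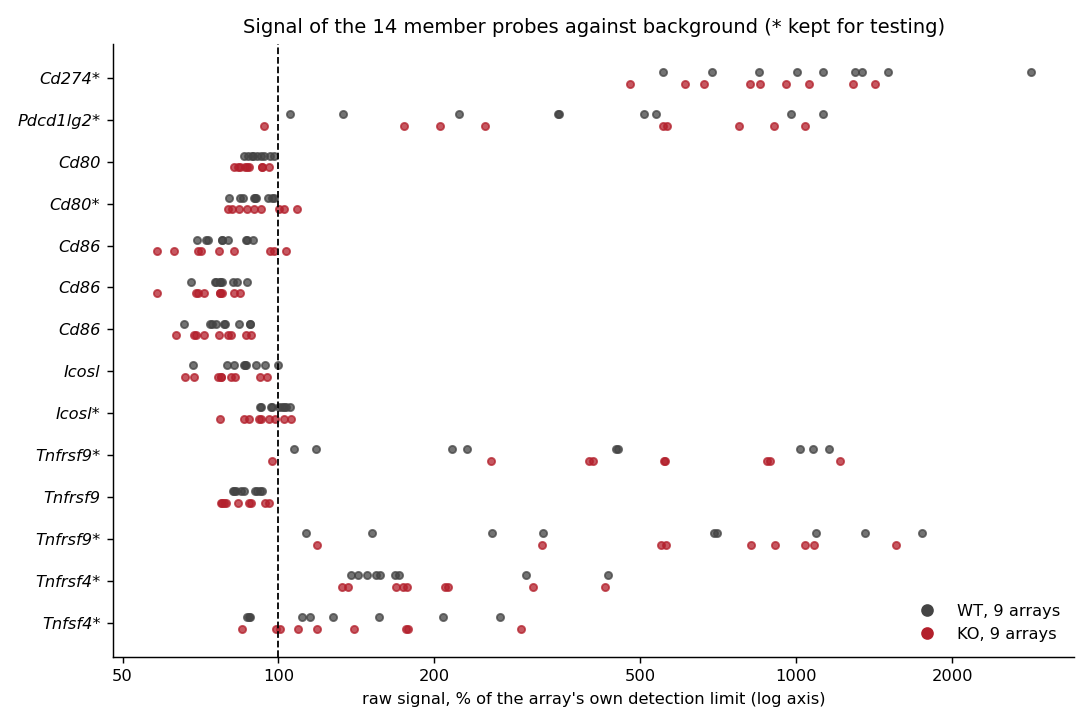
Raw signal of each member probe on the 18 arrays as a percentage of that array's own background limit, on a log axis, with 1 row per probe in the order of the text, wild-type (WT) arrays dark and knockout (KO) arrays red. The dashed line is the limit. Cd274 lies between 477% and 2836% on every array, whereas all probes of Cd80, Cd86 and Icosl lie at or near the line.

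Sequences upstream of the transcription start are shown for the ligands, which had different time courses, and for Tnfrsf9, which changed most between slides. They are the 250 bases before the start in RefSeq on GRCm38.p6, plus strand, 5′ to 3′. Those of Pdcd1lg2 (chr19:29410669-29410918) and of the second annotated start of Tnfrsf9 (chr4:150927749-150927998) have in capitals the matches to the 10-base NF-kB consensus and to the AP-1 motif TGANTCA. That of Cd274 (chr19:29367188-29367437) has its CG pairs in capitals, the dinucleotide that Dnmt3a methylates.
Pdcd1lg2: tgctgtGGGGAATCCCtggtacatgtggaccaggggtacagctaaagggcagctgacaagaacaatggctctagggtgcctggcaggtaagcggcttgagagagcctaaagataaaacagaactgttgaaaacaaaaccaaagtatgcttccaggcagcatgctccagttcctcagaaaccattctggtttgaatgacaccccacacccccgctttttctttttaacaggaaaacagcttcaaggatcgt
Tnfrsf9: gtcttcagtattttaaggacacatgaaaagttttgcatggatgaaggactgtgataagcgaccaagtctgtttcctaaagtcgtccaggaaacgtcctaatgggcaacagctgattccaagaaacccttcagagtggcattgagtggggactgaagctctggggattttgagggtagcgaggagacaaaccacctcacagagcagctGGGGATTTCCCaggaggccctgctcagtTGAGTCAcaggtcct
Cd274: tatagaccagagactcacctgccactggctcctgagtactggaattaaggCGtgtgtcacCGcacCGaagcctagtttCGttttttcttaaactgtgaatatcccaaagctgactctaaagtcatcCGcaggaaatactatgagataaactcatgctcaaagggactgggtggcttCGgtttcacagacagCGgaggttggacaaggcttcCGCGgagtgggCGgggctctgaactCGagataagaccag
Both strands were searched. Pdcd1lg2 held 1 NF-kB match, 244 to 235 bases before its start, and 0 AP-1 matches. The second Tnfrsf9 start had 2 NF-kB matches that overlap by all but 1 base and 1 AP-1 match, while its first start (chr4:150919905-150920154) had 0 of either. Cd274 and Tnfrsf4 (chr4:156013445-156013694) had 0 of either, Icosl had 1 NF-kB match and Cd80 had 1 AP-1 match. Over 32851 promoter windows of this length 7.25% held an NF-kB match and 6.75% an AP-1 match. A pair of GAAA words 2 bases apart, as in interferon response elements, present in 2.98% of windows, and the TATA box TATAAA, present in 12.4%, had 0 matches in any of these genes. The NFAT core GGAAA, in 55.6% of windows, occurred 3 times at the second Tnfrsf9 start, 2 times at the first, once in Cd274, Pdcd1lg2 and Tnfrsf4, and 0 times in Cd80 and Icosl. CG pairs numbered 11 in Cd274, 3 in Pdcd1lg2 and 4 at the second Tnfrsf9 start, against a median of 6. Methylation was not measured. Cd86 and Tnfsf4 are named only.

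The inhibitory ligand Cd274 was well above background at rest and was lowest at 24 h in both genotypes, the step from 4 h to 24 h passing the test in knockout cells. Its log2 intensity in untreated wild-type cultures 6, 8 and 9 was 10.57, 10.79 and 11.00, at 4 h it was 11.05, 11.81 and 11.01, and at 24 h it was 9.86, 10.02 and 9.48. In knockout cultures 3, 4 and 6 it was 10.57, 10.44 and 10.59 untreated, 10.50, 10.73 and 10.96 at 4 h, and 9.99, 9.71 and 9.38 at 24 h. In either genotype all 3 arrays at 24 h lay below every untreated and every 4 h array. No share of all genes that separate in this way is given here. This separation and those of Pdcd1lg2 and Tnfsf4 below are therefore descriptions. Wild-type culture 8 at 4 h stood highest of all 18 arrays.

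In knockout cells Cd274 fell from 4 h to 24 h by 1.04 on the log2 scale (SE 0.22, n = 3 cultures, 2.05-fold), lower in 3 of 3 cultures, with a limma adjusted p of 0.0483. It was the 1 of 7 tested members called there, against 0.69% of all genes. The adjusted p was 0.0225 with the culture as a replicate block and 0.0189 with the slide as a block, but 0.259 under median scaling in place of quantile normalisation, 0.0502 with the authors' log2 values and 0.107 when only the compared groups were fitted. Without knockout culture 3, 4 or 6 it was 0.142, 0.369 or 0.192, without wild-type culture 6 or 8, which enter through the shared spread, 0.0666 or 0.0577, and without the 24 h array of knockout culture 6 it was 0.125.

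Against untreated cells the 24 h level of Cd274 did not pass the test in the fit without a block. In wild-type cells the change was −0.997 (SE 0.22, 95% interval −1.47 to −0.52), lower in 3 of 3 cultures, with an adjusted p of 0.0533 that became 0.0259 with the replicate block and 0.0218 with the slide. The wild-type 24 h arrays were among those of the result known beforehand, so this test is not independent of it. In knockout cells it was −0.84 (SE 0.22, interval −1.31 to −0.36), again lower in 3 of 3 cultures, with an adjusted p of 0.113, or 0.0546 with the replicate block and 0.0484 with the slide. At 4 h the knockout change was +0.20 (SE 0.22, adjusted p = 0.695). The described wild-type changes were +0.50 (SE 0.22) at 4 h and −1.50 (SE 0.22) from 4 h to 24 h, a 2.83-fold difference. By group the order of mean levels ran from wild type at 4 h (11.29) through untreated wild type (10.78), knockout at 4 h (10.73) and untreated knockout (10.53) to wild type at 24 h (9.79) and knockout at 24 h (9.70). Neighbouring groups in that order overlapped except at the top step and at the step down to the 24 h groups.

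Pdcd1lg2, the other PD-1 ligand, was low at rest and highest at 4 h, a rise that passed the test in knockout cells. Its log2 intensity in untreated wild-type cultures 6, 8 and 9 was 8.22, 6.90 and 7.30, against 10.45, 10.47 and 9.61 at 4 h and 9.43, 8.62 and 8.74 at 24 h. In knockout cultures 3, 4 and 6 it was 8.24, 6.63 and 7.83 untreated, 10.80, 9.83 and 10.45 at 4 h, and 9.75, 8.36 and 9.62 at 24 h. As a description, all 12 stimulated arrays, at 4 h and at 24 h, lay above all 6 untreated arrays, and every culture was lower at 24 h than at 4 h.

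In knockout cells the 4 h rise of Pdcd1lg2 was +2.79 on the log2 scale (SE 0.46, n = 3 cultures), 6.94-fold, higher in 3 of 3 cultures, with a limma adjusted p of 0.0081, or 7.03e-05 with the replicate block. It was the 1 of 7 tested members called, against 0.812% of all genes. Without knockout culture 3 or 6 the adjusted p was 0.0665 or 0.0786, with changes of +2.91 and +2.88. The described wild-type change at 4 h was +2.70 (SE 0.46), or 6.50-fold. Since normexp with an offset of 50 compresses low signals, these folds understate changes from a level near background.

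Pdcd1lg2 at 24 h lay between its untreated and its 4 h levels. Against untreated cells it stood at +1.46 (SE 0.46, interval 0.47 to 2.44) in wild-type and +1.68 (SE 0.46, interval 0.70 to 2.66) in knockout cells, higher in 3 of 3 cultures each, with adjusted p-values of 0.146 and 0.123. With the culture as a replicate block these were 0.009 and 0.00413. The wild-type test uses the untreated arrays of the result known beforehand and is not independent of it. The knockout change from 4 h to 24 h was −1.12 (SE 0.46, adjusted p = 0.225, or 0.021 with the replicate block and 0.04 with the slide), and the described wild-type change was −1.24 (SE 0.46).

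In the 24 h comparisons with untreated cells, limma without a block thus called 0 of 7 members in wild-type cells, where 3 had an unadjusted p below 0.05 and 0.69% of all genes were called, and 0 of 7 in knockout cells, where 4 had an unadjusted p below 0.05 and 0.245% of all genes were called. Those with an unadjusted p below 0.05 include Tnfsf4 in both genotypes and Cd80 in knockout cells, whose values there are descriptions. With the replicate block 2 were called in wild-type cells (Cd274 and Pdcd1lg2) against 4.65% of all genes, and 1 in knockout cells (Pdcd1lg2) against 3.08%. In knockout cells from 4 h to 24 h it called 2 (Cd274 and Pdcd1lg2) against 6.39%. The wild-type calls share arrays with the results known beforehand.

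**Figure D2:**
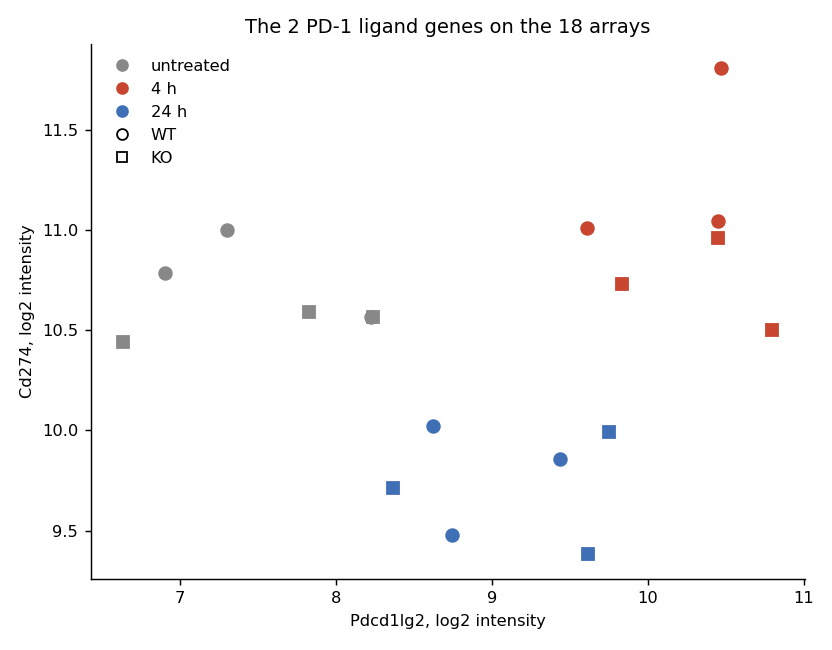
Log2 intensity of Cd274 against that of Pdcd1lg2 on the 18 arrays, coloured by time, with circles for wild-type (WT) and squares for knockout (KO) cells. Arrays at 4 h lie to the right of the untreated ones, and arrays at 24 h lie below all others with Pdcd1lg2 between 8.36 and 9.75.

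Across the 18 arrays, which share cultures and slides, Cd274 and Pdcd1lg2 had a Pearson r of 0.143, given as a description. Pdcd1lg2 had an r of 0.802 with Tnfrsf9, 0.724 with Tnfrsf4 and 0.710 with Tnfsf4. The genes most like Pdcd1lg2 were Ccl4 (0.956) and Ccl3 (0.95), which encode chemokines, then Lbh (0.946), Egr2 (0.939), an early growth response transcription factor, and Gabpb1 (0.939). Since these genes were picked for following Pdcd1lg2 over the same arrays, their 4 h values in knockout cells, such as +6.15 for Ccl3 (SE 0.70) and +3.87 for Egr2, are descriptions. The genes most like Cd274 were Mfge8 (0.896), Fam160b2 (0.882), Akap8l (0.88), Gab2 (0.879), an adaptor in Fc epsilon receptor signalling, and D10Wsu102e (0.876). Mfge8 differed by −0.79 (SE 0.22) from 4 h to 24 h in knockout cells, likewise as a description.

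Cd274 and Pdcd1lg2 lie close together on chromosome 19. Their nearest other protein-coding neighbours on the array were Plgrkt, beside Cd274, and Ric1, beside Pdcd1lg2. At 4 h in knockout cells Plgrkt changed by −0.48 (SE 0.20, adjusted p = 0.245) and Ric1 by +0.32 (SE 0.23, adjusted p = 0.513). Between 4 h and 24 h Plgrkt changed by +0.29 (adjusted p = 0.48) and Ric1 by −0.54 (adjusted p = 0.231). Neither passed in any tested comparison.

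**Figure D3:**
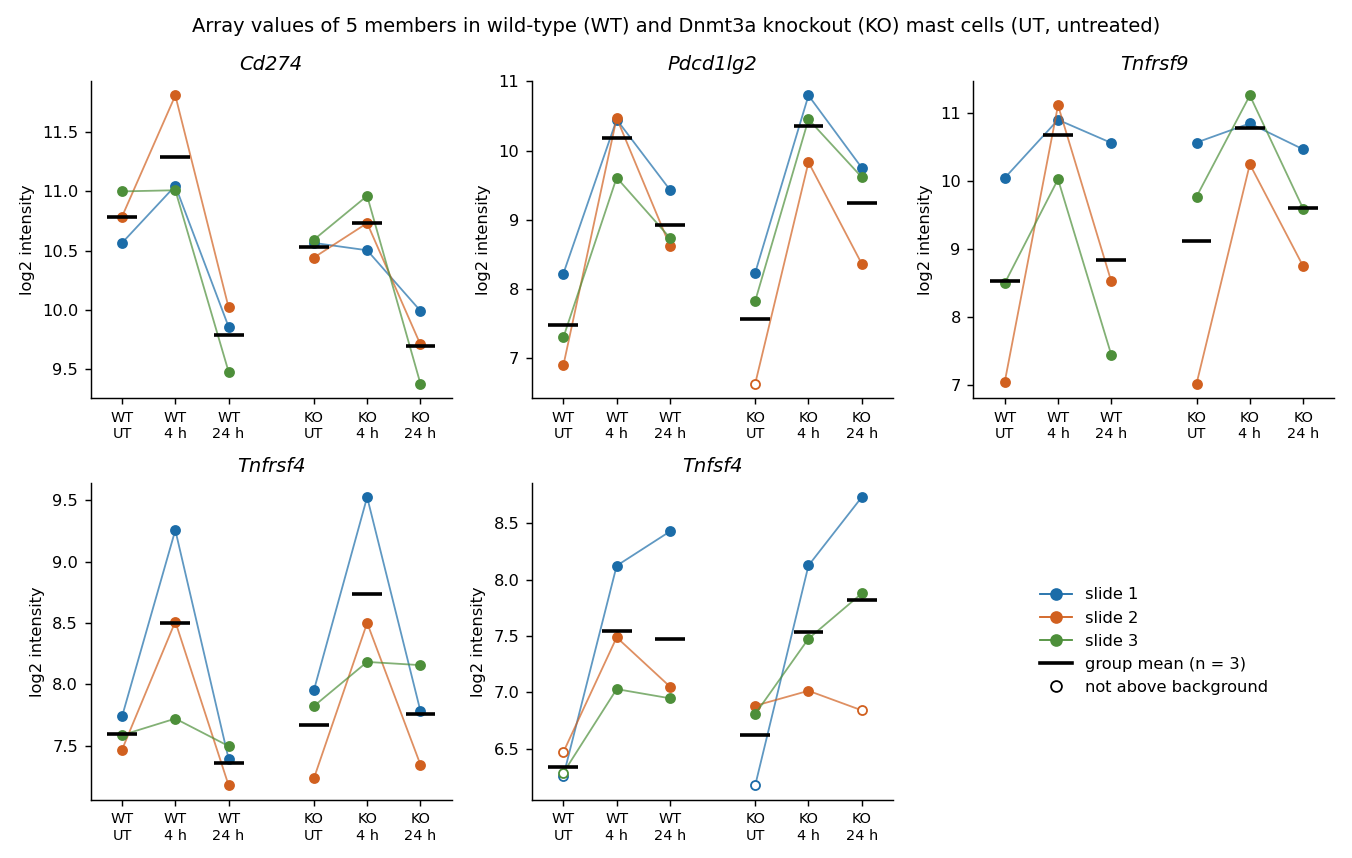
Log2 intensity of Cd274, Pdcd1lg2, Tnfrsf9, Tnfrsf4 and Tnfsf4 in untreated (UT), 4 h and 24 h wild-type (WT) and knockout (KO) cells, with 1 point per array, lines joining a culture, colours for the slides and black bars for the means of 3 arrays. Open points were not above background. Cd274 at 24 h lies below its other arrays, Pdcd1lg2 peaks at 4 h in each culture, and Tnfrsf9 is spread between cultures, with untreated values from 7.02 to 10.57.

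Tnfrsf9, which encodes the costimulatory receptor CD137, was higher at 4 h than untreated in each of the 6 cultures, but its resting level set the cultures far apart. Untreated wild-type cultures 6, 8 and 9 had log2 intensities of 10.05, 7.04 and 8.50, against 10.90, 11.12 and 10.03 at 4 h and 10.56, 8.52 and 7.44 at 24 h. Knockout cultures 3, 4 and 6 had 10.57, 7.02 and 9.77 untreated, 10.85, 10.25 and 11.26 at 4 h, and 10.47, 8.75 and 9.60 at 24 h. At rest the cultures of slide 2 lay within 0.03 of each other and lowest, and those of slide 1 lay highest and 0.52 apart. On slide 3 knockout 6 stood 1.27 above wild-type 9, and closer to the slide 1 cultures than to its partner. The part of slide and culture in this spread cannot be told apart.

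The 4 h change of Tnfrsf9 within a culture was therefore smallest on slide 1, at +0.86 in wild-type 6 and +0.28 in knockout 3, and largest on slide 2, at +4.07 in wild-type 8 and +3.23 in knockout 4. The fitted knockout change at 4 h was +1.67 (SE 0.91, interval −0.26 to 3.59), which did not pass the test (adjusted p = 0.371, or 0.127 with the replicate block). The described wild-type change was +2.15 (SE 0.91). At 24 h it stood at +0.31 (SE 0.91) in wild-type and +0.48 (SE 0.91) in knockout cells, but 2 of 3 knockout cultures were lower than untreated, and the values were −0.27 without wild-type culture 8 and −0.14 without knockout culture 4. From 4 h to 24 h every culture was lower. The probe above background on 17 arrays gave +1.62 (SE 0.91) at 4 h in knockout cells, close to the first, whereas the probe above background on 0 arrays carried no signal to compare. The genes most like Tnfrsf9 were Dnajb6 (r = 0.892), Hdc (0.866), which makes histamine, and Farsb (0.863).

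Tnfrsf4, the receptor CD134, had a low signal that was higher at 4 h than untreated in every culture, by an amount that was similar on a slide. Its log2 intensity in wild-type cultures 6, 8 and 9 was 7.74, 7.47 and 7.59 untreated, 9.26, 8.51 and 7.72 at 4 h, and 7.39, 7.18 and 7.50 at 24 h. In knockout cultures 3, 4 and 6 it was 7.95, 7.23 and 7.82 untreated, 9.52, 8.50 and 8.18 at 4 h, and 7.78, 7.35 and 8.16 at 24 h. All 6 cultures were higher at 4 h, by +1.52 and +1.57 on slide 1, +1.04 and +1.27 on slide 2, and +0.13 and +0.36 on slide 3.

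The fitted knockout change of Tnfrsf4 at 4 h was +1.07 (SE 0.36, interval 0.30 to 1.84, 2.09-fold), with an adjusted p of 0.154, or 0.0713 with the replicate block. It passed only with array weights (+1.13, adjusted p = 0.0378), under which 6.52% of all genes were called. The change from 4 h to 24 h was −0.97 (SE 0.36, adjusted p = 0.185). It also passed only with array weights (adjusted p = 0.0208), under which 14.5% of all genes were called. The described wild-type changes were +0.90 at 4 h and −1.14 from 4 h to 24 h (SE 0.36 each). At 24 h it lay near its untreated level, at −0.24 (SE 0.36) in wild-type cells, a sign that turned to +0.05 under median scaling, and at +0.09 (SE 0.36) in knockout cells. The genes most like it were Tec (r = 0.954), a tyrosine kinase, Hbegf (0.951), a growth factor, and Med14 (0.945), a Mediator subunit.

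Tnfsf4, the ligand of Tnfrsf4, went from background in untreated wild-type cells to above background at both times. Its log2 intensity in wild-type cultures 6, 8 and 9 was 6.26, 6.47 and 6.29 untreated, 8.12, 7.49 and 7.03 at 4 h, and 8.43, 7.05 and 6.95 at 24 h. In knockout cultures 3, 4 and 6 it was 6.18, 6.88 and 6.81 untreated, 8.12, 7.01 and 7.48 at 4 h, and 8.73, 6.84 and 7.88 at 24 h. The untreated wild-type arrays lay below all stimulated wild-type arrays, as a description, whereas knockout culture 4 was nearly level throughout. In both genotypes the slide 1 culture was highest at 4 h and at 24 h.

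Because untreated wild-type cells gave only a bound for Tnfsf4, wild-type signal was at least 1.80-fold higher at 4 h and at least 1.71-fold higher at 24 h. These bounds set the stimulated mean against the lowest signal above background on each untreated array. In knockout cells the change was +0.92 (SE 0.46) at 4 h and +1.19 (SE 0.46) at 24 h. Since Tnfsf4 passed the filter only through stimulated arrays, these values against untreated cells are descriptions in both genotypes. Unlike that of Pdcd1lg2, the knockout value from 4 h to 24 h was positive, at +0.28 (SE 0.46, adjusted p = 0.808), higher in 2 of 3 cultures. The genes most like Tnfsf4 were Cdkn2a (r = 0.922), a cell cycle inhibitor locus, Actn1 (0.921), an actin crosslinker, and Nkg7 (0.92).

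**Figure D4:**
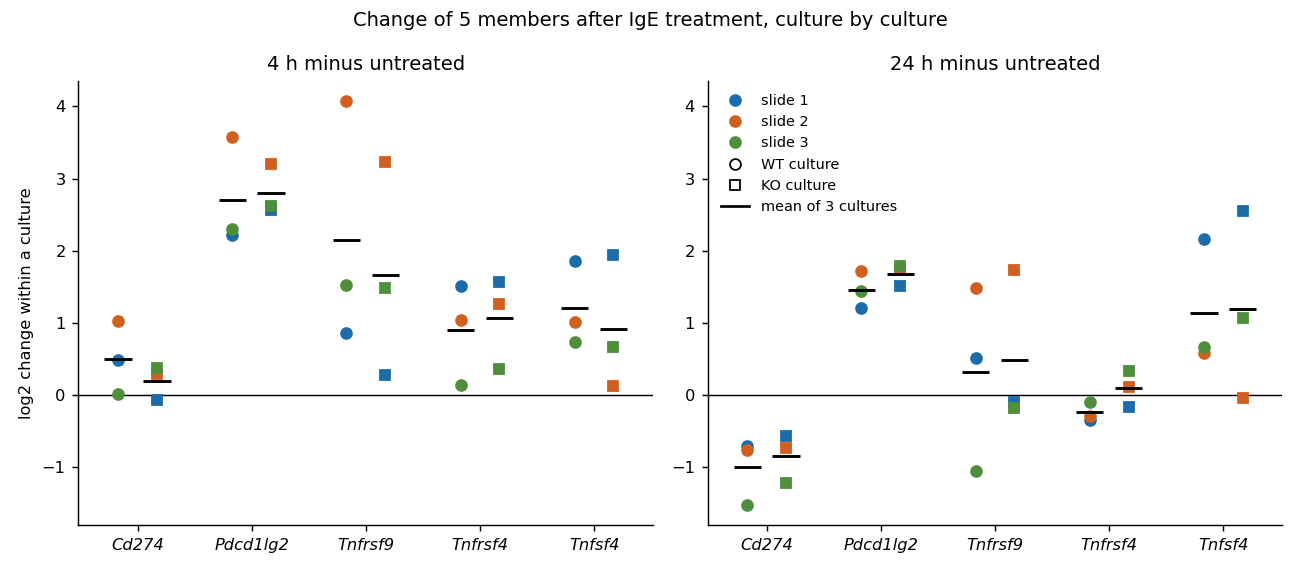
Log2 change within each culture from untreated to 4 h (left) and to 24 h (right), for 5 genes, with circles for wild-type (WT) and squares for knockout (KO) cultures, colours for the slides and bars for the means of 3 cultures. At 4 h all 6 cultures are above 0 for Pdcd1lg2, Tnfrsf9, Tnfrsf4 and Tnfsf4, and Tnfrsf9 ranges from 0.28 to 4.07. At 24 h Cd274 is below 0 in all 6.

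Cd80 and Icosl differed by at most 0.34 on the log2 scale in each stimulation and genotype comparison. For Cd80, the described knockout value at 24 h was +0.34 (SE 0.16) from untreated, with 1 array above background against 0. For Icosl, the largest stimulation value was −0.08 (SE 0.13, adjusted p = 0.817) at 24 h in knockout cells. The genes most like Cd80 were Lpl (r = 0.788), Hsd17b1 (0.787) and Snrnp27 (0.756), and those most like Icosl were Frmd7 (0.783), Usp22 (0.75) and Bms1 (0.748).

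Between genotypes 0 of 7 members were called by limma in untreated cells, at 4 h or at 24 h, where 0.267%, 0.189% and 0.278% of all genes were called. Unadjusted p-values below 0.05 numbered 0, 1 and 0. The 1 was Cd274 at 4 h, which was −0.56 in knockout against wild-type cells (SE 0.22, interval −1.03 to −0.08, adjusted p = 0.899, or 0.454 with the slide as a block). The wild-type 4 h arrays of Cd274 were among those of the result known beforehand, so this test is not independent of it. Within the slides this difference was −0.54, −1.08 and −0.05, so it was lower in knockout cells on 3 of 3 slides, and the highest wild-type array, culture 8, lay on the slide with the largest difference. Untreated, Cd274 differed by −0.25 (interval −0.73 to 0.22), with an identical normalised value in both cultures of slide 1, and at 24 h by −0.09 (interval −0.57 to 0.38).

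Pdcd1lg2 differed between genotypes by +0.09 untreated (interval −0.89 to 1.07), +0.18 at 4 h (interval −0.80 to 1.17) and +0.31 at 24 h (interval −0.67 to 1.30), higher in knockout cells on slides 1 and 3 and lower on slide 2 each time. Tnfrsf9 had the widest intervals, with +0.76 at 24 h (interval −1.17 to 2.69), where slide 3 differed by +2.15 and slides 1 and 2 by −0.09 and +0.23. Tnfrsf4 was higher in knockout cells at 24 h on 3 of 3 slides, at +0.41 (interval −0.36 to 1.18, adjusted p = 0.999), and Tnfsf4 at +0.34 (interval −0.63 to 1.31) on 2 of 3. These intervals leave room for differences of the size shown by the responses of Tnfrsf9 and Tnfsf4.

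Differences in response were tested as knockout response minus wild-type response. At 4 h and at 24 h limma called 0 of 7 members and 0% of all genes. An unadjusted p below 0.05 was held by 0 members, and by 95 and 160 of all genes. For Pdcd1lg2 the difference was +0.09 at 4 h (SE 0.65, interval −1.30 to 1.48) and +0.22 at 24 h (SE 0.65, interval −1.17 to 1.61). For Cd274 it was −0.30 at 4 h (SE 0.32, interval −0.98 to 0.37) and +0.16 at 24 h (SE 0.32, interval −0.51 to 0.83). For Tnfrsf4 it was +0.17 at 4 h (interval −0.92 to 1.26). Among markers of other cells, Adgre1 was +1.09, +0.98 and +1.15 in knockout against wild-type cells untreated, at 4 h and at 24 h (adjusted p = 0.794, 0.98 and 0.905), and H2-Ab1 was +0.76, +0.99 and +1.20 (adjusted p = 0.656, 0.413 and 0.157). The summed intensity of the tested dendritic cell markers at 24 h was 371 to 488 in wild-type and 460 to 783 in knockout cells, and that of the mast cell markers was 129643 to 139387 and 105363 to 130270. For the macrophage marker Adgre1 that intensity was 170 to 517 and 559 to 774. Their part in the genotype values was not tested.

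**Figure D5:**
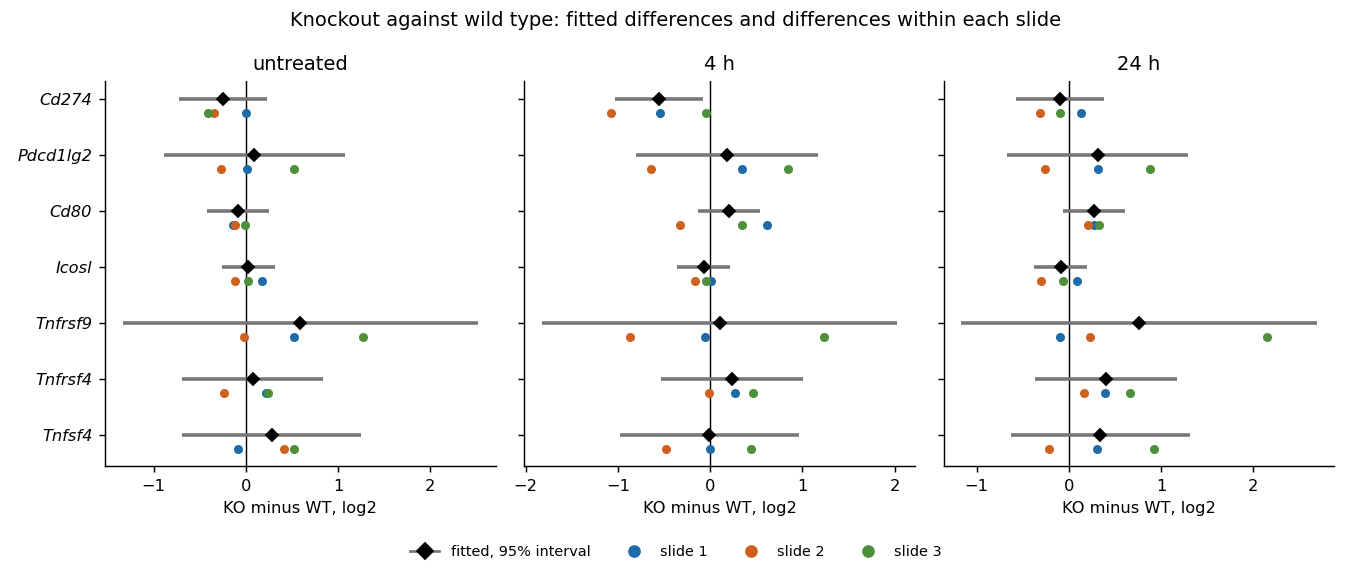
Knockout (KO) minus wild-type (WT) log2 difference of the 7 tested genes in untreated cells, at 4 h and at 24 h, with diamonds and bars for the fitted value and its 95% interval and coloured points for the difference within each slide. The interval includes 0 in every case except Cd274 at 4 h, at −1.03 to −0.08, and Tnfrsf9 has the widest intervals. The wild-type 4 h arrays of Cd274 were among those of a result known when the gene was chosen.

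Related genes were read from lists chosen with results of these data known, each counted over all genes tested. Of 13 other B7 and CD28 family genes only Cd276 and Vsir, both of the B7 family, had a tested probe, and Pdcd1, Cd28, Ctla4 and Icos, the receptors of the ligands described above, were above background on 0 arrays. At 4 h in knockout cells limma called 0 of these 2. Cd276 was +0.81 (SE 0.64, adjusted p = 0.555) there. Vsir (VISTA), an inhibitory B7 relative, was +1.62 (SE 0.43), with 1 of 3 untreated and 3 of 3 knockout arrays at 4 h above background. Because Vsir passed the filter only through stimulated arrays, this rise is a description although Vsir is counted among the 2. From 4 h to 24 h it was −1.28 (SE 0.43, adjusted p = 0.154, or 0.0158 with the replicate block). Its difference between genotypes at 4 h was +1.39 (SE 0.43, adjusted p = 0.549, or 0.0216 with the slide as a block).

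Of 14 other TNF superfamily costimulators 5 were tested, and at 4 h in knockout cells 2 rose and 0 fell, where 0.634% of all genes rose and 0.178% fell. Of the 2, Tnfsf14 (LIGHT), a ligand, rose by 1.89 (SE 0.42, adjusted p = 0.0472). Cd27, a costimulatory receptor, was above background on 0 of 3 untreated knockout arrays and on 3 of 3 at either time. Its level was at least 6.73-fold higher at 4 h. Because Cd27 passed the filter only through stimulated arrays, this rise is a description although it is counted among the 2. Cd27 fell by 2.15 from 4 h to 24 h (SE 0.44, adjusted p = 0.0417), where 0.434% of all genes fell. Tnfsf8 was +1.09 at 4 h (SE 0.35, adjusted p = 0.139, or 0.00941 with the replicate block). The median change of the 5 at 4 h was +1.09, against −0.02 over all genes. The ligand of Tnfrsf9, Tnfsf9, was above background on 3 arrays.

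Of 12 TRAF and alternative NF-kB genes, which act below Tnfrsf9 and Tnfrsf4, 9 were tested. At 4 h in knockout cells 2 rose and 0 fell without a block, where 0.634% of all genes rose and 0.178% fell. With the slide as a block 3 rose and 2 fell, where 3.17% of all genes rose and 2.38% fell. With the replicate block 2 rose and 1 fell, where 2.68% of all genes rose and 1.94% fell. The 2 without a block were Nfkb2, by 1.05 (SE 0.23, adjusted p = 0.0445), and Relb, at least 1.38-fold, the subunits of the alternative pathway. Like Cd27, Relb passed the filter only through stimulated arrays, so its rise is a description although it is counted. The genes that fell with a block were Birc3, at −0.70 (SE 0.19, adjusted p = 0.098, or 0.0441 with the replicate block), and, with the slide only, Birc2, at −0.79 (SE 0.20, adjusted p = 0.0782, or 0.0393 with the slide), both ubiquitin ligases that act with TRAF adaptors. The median change of the 9 was +0.66, or +0.47 with Relb at its bound. Traf1, an adaptor of both receptors, was +1.19 (SE 0.58, adjusted p = 0.315). Of 17 known regulators of PD-L1, including interferon gamma receptors, JAK and STAT genes and Cmtm6, which keeps PD-L1 at the cell surface, 15 were tested and 0 were called in the tested stimulation and genotype comparisons without a block. Cmtm6 was −1.45 at 4 h in knockout cells (SE 0.45, adjusted p = 0.125, or 0.0409 with the replicate block). Jak2, a kinase of interferon gamma signalling, was +1.28 (SE 0.76, adjusted p = 0.421).

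Of 18 other co-signalling and adhesion genes 13 were tested, and 0 were called in the tested comparisons without a block. At 4 h in knockout cells Cd47, a ligand that restrains phagocytes, was −0.79 (SE 0.21, adjusted p = 0.0899), and Havcr2 (TIM-3), an inhibitory receptor, was +0.87 (SE 0.53, adjusted p = 0.432). Havcr2 from 4 h to 24 h was −1.45 (SE 0.53, adjusted p = 0.18, or 0.0353 with the replicate block), and Ceacam1, an inhibitory adhesion receptor, was −1.05 (SE 0.41, adjusted p = 0.2, or 0.0495 with the replicate block). Without a block the 5 lists together had 0 genes called at 24 h against untreated in either genotype, between genotypes and in the differences in response. With a block, those called at 24 h in wild-type cells were Rela, at −0.55 (adjusted p = 0.2, or 0.0367 with the slide), and Stat3, at −0.56 (adjusted p = 0.284, or 0.0475 with the replicate block). Those called in knockout cells were Tnfsf8, at +0.76 (adjusted p = 0.356, or 0.0485 with the replicate block), and Lag3, at +0.98. With the slide as a block 3.03% of all genes fell at 24 h in wild-type cells and 2.01% rose in knockout cells. With the replicate block these shares were 2.55% and 1.66%. Lag3 was above background on 0 of 3 untreated and 2 of 3 knockout arrays at 24 h. It passed the filter only through stimulated arrays, so its value is a description.

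Markers of the cells themselves were set beside the stimulation values. The summed intensity of the 12 mast cell markers was 133271 to 137865 in untreated knockout cells, 108003 to 150847 at 4 h and 105363 to 130270 at 24 h. In wild-type cells it was 141711 to 152092, 126107 to 161292 and 129643 to 139387. The 2 tested T and NK cell markers summed to 1767 to 2978, 1573 to 1925 and 2785 to 3362 in knockout cells and to 1702 to 4071, 1429 to 1881 and 3266 to 4555 in wild-type cells, with Cd3e at background on all arrays, and the tested dendritic cell markers to 434 to 597, 388 to 433 and 460 to 783 in knockout and 400 to 507, 298 to 415 and 371 to 488 in wild-type cells. The 3 basophil markers summed to 8391 to 11172 untreated, 6429 to 6835 at 4 h and 5869 to 7943 at 24 h in knockout cells, and to 9527 to 11737, 6387 to 8296 and 5849 to 8344 in wild-type cells, with the untreated range above both others in each genotype. Of them Cd200r3 fell at 24 h in wild-type cells by 0.86 (SE 0.17, adjusted p = 0.0381), as Cd274 was lower there, while Mcpt8 was +2.34 (SE 0.66, adjusted p = 0.106, or 0.0303 with the replicate block). The part of these markers in the responses of Cd274 and Pdcd1lg2 was not tested.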

How the data were processed

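Total RNA of 18 mast cell samples was measured on Illumina bead arrays. The deposited non-normalised table gives an intensity per probe on a linear scale, and per the labels' protocols biotinylated cRNA was made with an Ambion kit for Illumina arrays. The authors' second table gives log2 values, with a median of 6.92, within 0.000556 of a plain quantile normalisation of the deposited intensities. No source used here names the scanner or the summarisation software.

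With limma 3.58.1 in R 4.3.3, normexp (offset 50, fitted to each array's own signals) removed background, and quantile normalisation and log2 followed. The files hold no detection p-values, so background came from receptor probes as described. Of 45281 probes 34885 had 1 gene symbol, 18 several and 10378 none, and 16669 were kept. A gene was represented by its kept probe with the highest mean. All 18 arrays were fitted with 6 group means and no block, two-sided, with eBayes and Benjamini-Hochberg adjustment over 8985 genes at 0.05. Groups, cultures and slides came from the labels.

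The members and gene lists were chosen with earlier results of these data known. Named genes are all members, the 5 genes with the highest Pearson correlation to Cd274 and Pdcd1lg2 and the 3 highest for the others, and, of each list, the genes called and the 2 with the largest changes. Kit, Tnfsf8, Tnfsf9, Birc2, Birc3, Rela, Stat3 and Lag3 were named after their values were seen. Same-culture arrays had deviations from group means that correlated with 0.134 to 0.625 (18 of 18 pairs over 0.1), so the culture was used as a replicate block beside the main result. Genotype comparisons could not be fitted with it. Arrays of both genotypes on 1 slide had a median correlation of 0.328, and arrays on different slides −0.234. The closest pair of arrays correlated at 0.989. The pipeline was tested on simulated data. Probes are short, their targets were not used here, and the number of arrays limits precision. Promoter windows were read from a RefSeq table on GRCm38.p6 with Python.

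Alternatives were the authors' log2 values, no background correction, cyclic loess, median scaling, other background limits or none, every kept probe, slide, replicate and random blocks, only the groups compared, array weights, each culture left out, and, chosen after seeing the data, 2 single arrays left out.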

Additional observations from a re-analysis of the deposited data

How the results depend on the processing

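Direction and side of the threshold held in most of the alternatives, with 149 of 177 unchanged for counts of members called in the 9 tested comparisons and 1271 of 1379 for single genes. These totals include the many values that were not called. Of the called values in knockout cells, Pdcd1lg2 at 4 h passed in 18 of 20 alternatives. Cd274 from 4 h to 24 h passed in only 8 of 20. No called value changed sign. Between 24 h and untreated in wild-type cells the count of members called was 0, against 0.69% of all genes. It became 1 (Cd274) without background correction (0.879% of all genes) and with the authors' log2 values (0.879%). It was also 1 (Cd274) with the 4 h array of culture 9 (wild type) left out (0.946%). It became 2 (Cd274 and Pdcd1lg2) with the slide as a block (5.24%), the replicate block (4.65%), the culture as a random block (4.65%) and array weights (14.3%). At 4 h in knockout cells the count of 1 (0.812% of all genes) became 2 with array weights (6.52%). It ranged from 0 to 1 with 1 culture left out, the lost call being Pdcd1lg2 without knockout culture 3 (0.178%) or 6 (0.312%). At 24 h against untreated in knockout cells the count of 0 (0.245% of all genes) became 2 with the slide (3.86%) or random block (3.44%). It became 1 with the replicate block (3.08%). From 4 h to 24 h in knockout cells the count of 1 (0.69% of all genes) became 0 without background correction (0.545%) or with no filter on dim probes (0.147%). It was also 0 with median scaling (0.0445%), the authors' values (0.545%), mode-based detection (0.36%) and only the groups compared (0.178%). Without the 24 h array of knockout culture 6 it was 0 (0.256%), and with 1 culture left out it ranged from 0 to 1. It became 2 with the slide (7.18%), the replicate block (6.39%) and array weights (14.5%). The replicate block changed no other count of members called. Genotype comparisons and differences in response stayed at 0 members under each alternative run. Under median scaling the median change of all genes was 0.26 at 24 h in wild-type cells and 0.139 from 4 h to 24 h there. It was 0.138 at 24 h in knockout cells and −0.135 for the 24 h difference in response. Under quantile normalisation these medians were −0.0181, 0.00293, −0.00131 and 0.0142. Why the calls of Cd274 moved was not tested. Signal over background limits Cd80, Cd86 and Icosl, which lie at the limit, and Tnfsf4 in untreated cells.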
